A study of Mus musculus with 6 samples.

Results

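The genes described here handle retinoic acid in the fetal mouse testis: they take up retinol, bind the acid, make it and break it down. They are 9 of the 42747 rows of the deposited count table, chosen by gene symbol, and all 9 passed the filter on low counts. Polyadenylated RNA of E16.5 testes was sequenced as 6 libraries (3 cKO, 3 WT) from 3 mice of each genotype per the series design. The series title concerns the kinase CK1α, the product of Csnk1a1, in Sertoli cells, the somatic nurse cells inside the testis cords. The label cKO is taken here to mean that Csnk1a1 was conditionally deleted in those cells. Neither the Cre line nor the deleted exons, the strain or the alleles carried by WT mice are named in the labels.

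Retinol reaches a cell bound to a carrier protein, is oxidised to retinaldehyde by retinol dehydrogenases and then to retinoic acid by retinaldehyde dehydrogenases. Retinoic acid binds nuclear receptors and is cleared by enzymes of the CYP26 family. In the fetal testis CYP26B1 is known for clearing retinoic acid and so keeping germ cells from entering meiosis before birth, while much of the retinoic acid of the region is made in the neighbouring mesonephros. Among the genes described, Stra6 encodes the cell surface receptor through which retinol enters, and Crabp1 and Crabp2 encode cytosolic proteins that bind retinoic acid. Rdh10 encodes the dehydrogenase that makes retinaldehyde, Aldh1a1, Aldh1a2 and Aldh1a3 encode the dehydrogenases that turn it into retinoic acid, Cyp26b1 encodes the clearing enzyme and Dhrs3 encodes a reductase that returns retinaldehyde to retinol.

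Sequences before the annotated starts are shown for the importer, the most abundant synthesis gene and the clearing gene, that is, the gene with the largest rise and the 2 whose cKO libraries all lay below WT. They run from 250 bases before to 30 bases after a RefSeq start site in GRCm38.p6, on the gene's own strand. Capitals mark a match to a hexamer that retinoid receptors can bind, and binding was not measured. For Stra6 and Aldh1a1, which have several start sites, the window shown is the one with a match. Stra6 is read from chr9:58133825-58134104 (plus strand), Aldh1a1 from chr19:20601718-20601997 (plus strand) and Cyp26b1 from chr6:84593781-84594060 (minus strand).
Stra6: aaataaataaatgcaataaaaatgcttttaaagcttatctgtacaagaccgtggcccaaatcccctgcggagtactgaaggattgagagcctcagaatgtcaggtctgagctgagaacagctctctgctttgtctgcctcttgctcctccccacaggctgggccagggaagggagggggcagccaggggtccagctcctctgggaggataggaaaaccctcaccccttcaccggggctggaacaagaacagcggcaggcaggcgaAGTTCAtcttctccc
Aldh1a1: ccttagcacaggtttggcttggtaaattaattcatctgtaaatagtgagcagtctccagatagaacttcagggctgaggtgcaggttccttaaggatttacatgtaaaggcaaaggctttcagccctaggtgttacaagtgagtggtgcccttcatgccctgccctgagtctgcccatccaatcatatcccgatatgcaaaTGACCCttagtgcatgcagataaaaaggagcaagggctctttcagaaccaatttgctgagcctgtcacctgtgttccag
Cyp26b1: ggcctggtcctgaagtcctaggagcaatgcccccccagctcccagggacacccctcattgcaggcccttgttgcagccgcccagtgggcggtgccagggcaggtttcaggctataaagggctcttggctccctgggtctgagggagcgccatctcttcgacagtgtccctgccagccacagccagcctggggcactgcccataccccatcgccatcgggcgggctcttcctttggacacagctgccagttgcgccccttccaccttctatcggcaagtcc
The hexamers searched were AGGTCA and AGTTCA as well as GGGTCA and GGTTCA on both strands of the full windows of 300 bases, alone and as direct repeats 1, 2 or 5 bases apart. Of the 9 genes, 6 (Stra6, Dhrs3, Aldh1a1, Aldh1a2, Cyp26b1 and Crabp1) were matched in the RefSeq table, with 12 start sites, and Rdh10, Aldh1a3 and Crabp2 were not matched. A hexamer lay 16 bases into the transcribed part at 1 of the 4 Stra6 start sites, and another, read on the minus strand, began 49 bases before 1 of the 2 Aldh1a1 start sites. At least 1 hexamer was present in 43.7% of all 32851 windows of that length, so the matches of Stra6 and Aldh1a1 are common ones. None of the 12 windows held a direct repeat, and repeats spaced by 1, 2 and 5 bases were present in 0.222%, 0.268% and 0.0974% of all windows. Which start sites are used in these testes was not measured.

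Gene counts summed to between 15092619 and 17431546 per library. CPM values are counts scaled to a common library size and composition, summarised by mean ± SD of the 3 libraries, and FPKM values, which also divide by gene length, are the authors'. Fold changes are cKO against WT, and a gene is called at an adjusted p under 0.05 (quasi-likelihood test of edgeR, adjusted by Benjamini-Hochberg over 18383 tested genes). The labels do not say whether libraries of 1 group come from separate litters, so p-values measure the spread between these animals only. Csnk1a1 itself was not called (393 ± 14.1 CPM in cKO against 372 ± 24.0 CPM in WT, log2 fold change 0.08, edgeR adjusted p = 0.798), and a count over the whole gene in testis RNA of all cell types does not check the deletion. Sertoli, germ, Leydig and interstitial markers of the testis were detected in both groups, with the levels given further on.

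Of the 9 genes, 3 rose in cKO testes: Stra6, Rdh10 and Aldh1a3. None fell by edgeR, although Cyp26b1 and Aldh1a1 were lower in every cKO library than in any WT library. Of all tested genes, 1.50% were called higher and 1.84% lower. Counted by raw p under 0.05, 4 of the 9 stood higher and 2 lower, against 7.75% and 8.03% of all tested genes, and DESeq2 called 4 higher and 2 lower, against 2.87% and 3.12% of all tested genes. The cKO libraries lay wholly above WT for 4 of the 9 (10.7% of all tested genes) and wholly below for 2 (10.9%), so 6 of 9 were apart in either direction (21.6% of all tested genes). The median log2 fold change was -0.003 over the 9 genes and 0.003 over all tested genes, with 4 of the 9 values positive.

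**Figure D1:**
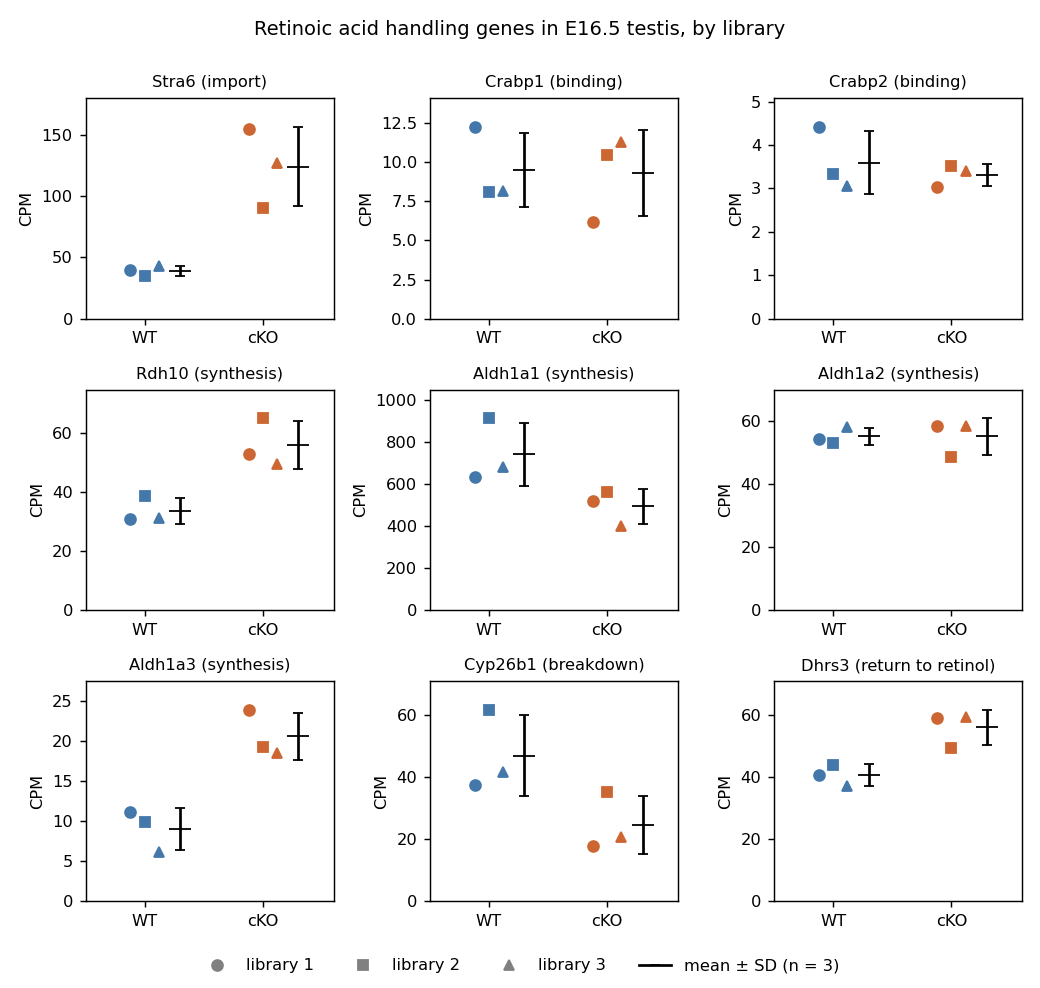
CPM of each gene (y axis, from 0) in each of 6 libraries, WT in blue and cKO in orange, with the mean ± SD of 3 libraries in black. Marker shapes give the library number, which is not known to pair libraries. Stra6, Rdh10, Aldh1a3 and Dhrs3 are higher and Aldh1a1 and Cyp26b1 lower in all cKO libraries, while Crabp1, Crabp2 and Aldh1a2 overlap.

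The uptake gene changed most. Stra6 (chromosome 9, 58909684 to 59013010, plus strand, numbered as in the C57BL/6NJ annotation that the file uses) stood at 155, 90.4 and 127 CPM in cKO libraries 1, 2 and 3 and at 39.5, 34.5 and 42.9 CPM in WT libraries 1, 2 and 3. The lowest cKO library was thus far above the highest WT library. Its level was 3.18-fold higher in cKO (124 ± 32.3 against 39.0 ± 4.23 CPM, log2 fold change 1.67 with SE 0.185, 95% confidence interval 1.26 to 2.08, edgeR adjusted p = 0.000525), and it ranked 70 by p among the tested genes. Counting error was 2.25% in cKO and 4.0% in WT, against a spread between libraries of 26.0% and 10.8%, so libraries differed by more than counting error. The start of the Stra6 locus overlaps Ccdc33 on the opposite strand, but Ccdc33 held a mean of only 9.33 counts in cKO and 12.7 in WT. Gm16131, annotated on the same strand within the Stra6 span, had 0 counts in all libraries. None of the other 8 genes overlaps an annotated gene in the file.

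The binding protein genes showed no detectable difference. Crabp1 (chromosome 9, 55325722 to 55334084, plus strand) stood at 6.19, 10.4 and 11.3 CPM in cKO against 12.3, 8.12 and 8.19 CPM in WT. The groups overlapped in part, with the lowest library in cKO and the highest in WT, and the log2 fold change was -0.03 (95% confidence interval -0.64 to 0.58, edgeR adjusted p = 0.969). Crabp2 (chromosome 3, 91323265 to 91327975, plus strand) stood at 3.03, 3.52 and 3.39 CPM in cKO against 4.42, 3.33 and 3.05 CPM in WT (log2 fold change -0.12, 95% confidence interval -0.79 to 0.56, edgeR adjusted p = 0.895). These intervals are wide: that of Crabp1 reaches from 1.55-fold lower to 1.49-fold higher. By FPKM, Crabp1 made up 81.6 ± 3.96% of the summed Crabp1 and Crabp2 level in cKO and 81.2 ± 1.03% in WT.

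Of the 4 synthesis genes, Rdh10 and Aldh1a3 rose, while Aldh1a1 stood lower without being called and Aldh1a2 hardly differed. Rdh10 (chromosome 1, 14197921 to 14225878, plus strand), the retinol dehydrogenase, stood at 52.8, 65.0 and 49.6 CPM in cKO libraries 1, 2 and 3 and at 30.9, 38.7 and 31.0 CPM in WT libraries. The groups did not overlap, and the level was 1.66-fold higher in cKO (log2 fold change 0.73 with SE 0.152, 95% confidence interval 0.40 to 1.07, edgeR adjusted p = 0.0231). This call was lost without cKO library 3, WT library 1 or WT library 3 (edgeR adjusted p = 0.0554, 0.131 and 0.141), with log2 fold changes of 0.61 to 0.86 over the 6 fits that leave out 1 library.

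Aldh1a3 (chromosome 7, 70534783 to 70571483, minus strand) was the least abundant of the retinaldehyde dehydrogenase genes and the one that rose. It stood at 24.0, 19.3 and 18.6 CPM in cKO against 11.1, 9.98 and 6.16 CPM in WT, so that every cKO library lay above every WT library. The level was 2.27-fold higher in cKO (20.6 ± 2.92 against 9.09 ± 2.61 CPM, log2 fold change 1.18 with SE 0.234, 95% confidence interval 0.67 to 1.70, edgeR adjusted p = 0.0182). Without cKO library 3, WT library 2 or WT library 3 the edgeR adjusted p was 0.0590, 0.0541 and 0.0668.

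Aldh1a1 (chromosome 19, 19246238 to 19291523, plus strand) was the most abundant of the 9 genes and stood in the opposite direction. Its libraries held 519, 562 and 400 CPM in cKO against 633, 914 and 683 CPM in WT. The groups did not overlap, but the gene was not called by edgeR (493 ± 84.0 against 743 ± 150 CPM, log2 fold change -0.59 with SE 0.176, 95% confidence interval -0.98 to -0.20, edgeR adjusted p = 0.110). DESeq2 called Aldh1a1 lower (DESeq2 adjusted p = 0.0207), while no fit that leaves out 1 library did (smallest edgeR adjusted p = 0.0611). Aldh1a2 (chromosome 9, 73218170 to 73300862, plus strand), the dehydrogenase gene of early embryonic retinoic acid synthesis, had the smallest fold change of the 9. It stood at 58.3, 48.5 and 58.5 CPM in cKO against 54.3, 53.2 and 58.2 CPM in WT (log2 fold change -0.003, 95% confidence interval -0.28 to 0.28, edgeR adjusted p = 0.994), and the interval leaves room for a change of up to 1.21-fold.

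Per length, Aldh1a1 held most of the retinaldehyde dehydrogenase level in both groups. By FPKM its share of the summed Aldh1a1, Aldh1a2 and Aldh1a3 level was 89.1, 91.4 and 86.7% in cKO libraries and 92.1, 94.6 and 92.5% in WT libraries. The share of Aldh1a3 was 1.83, 1.40 and 1.79% in cKO against 0.722, 0.459 and 0.371% in WT, and the share of Aldh1a2 was 9.25 ± 2.19% against 6.44 ± 1.25%. The summed FPKM of the 3 genes was 267 ± 39.1 in cKO and 384 ± 73.2 in WT, so the rise of Aldh1a3 was small beside the lower Aldh1a1 level.

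The transcript of the clearing enzyme stood lower and that of the retinaldehyde reductase higher in cKO, neither past the threshold. Cyp26b1 (chromosome 6, 88028639 to 88042415, minus strand) had 17.8, 35.2 and 20.8 CPM in cKO libraries 1, 2 and 3 and 37.5, 61.8 and 41.7 CPM in WT libraries. Library 2 of cKO came close to the lowest WT library, and the other 2 cKO libraries lay well below. The fitted level was 1.91-fold lower (24.6 ± 9.31 against 47.0 ± 13.0 CPM, log2 fold change -0.93 with SE 0.259, 95% confidence interval -1.50 to -0.36, edgeR adjusted p = 0.0864). Without cKO library 2 Cyp26b1 was called lower (log2 fold change -1.28, edgeR adjusted p = 0.00408), and DESeq2 also called it (DESeq2 adjusted p = 0.0115). Over the other 5 fits that leave out 1 library it was not called, with log2 fold changes of -1.07 without WT library 1 to -0.68 without WT library 2 (edgeR adjusted p = 0.128 and 0.261).

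Dhrs3 (chromosome 4, 153237359 to 153279406, plus strand) stood at 59.0, 49.4 and 59.4 CPM in cKO against 40.7, 44.0 and 37.1 CPM in WT. The groups did not overlap, and Dhrs3 had a log2 fold change of 0.46 (standard error 0.133, 95% confidence interval 0.17 to 0.75, edgeR adjusted p = 0.0972). It was called higher without cKO library 2 (log2 fold change 0.55, edgeR adjusted p = 0.0385) and by DESeq2 (DESeq2 adjusted p = 0.0374), with 0.40 without WT library 3 (edgeR adjusted p = 0.396).

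**Figure D2:**
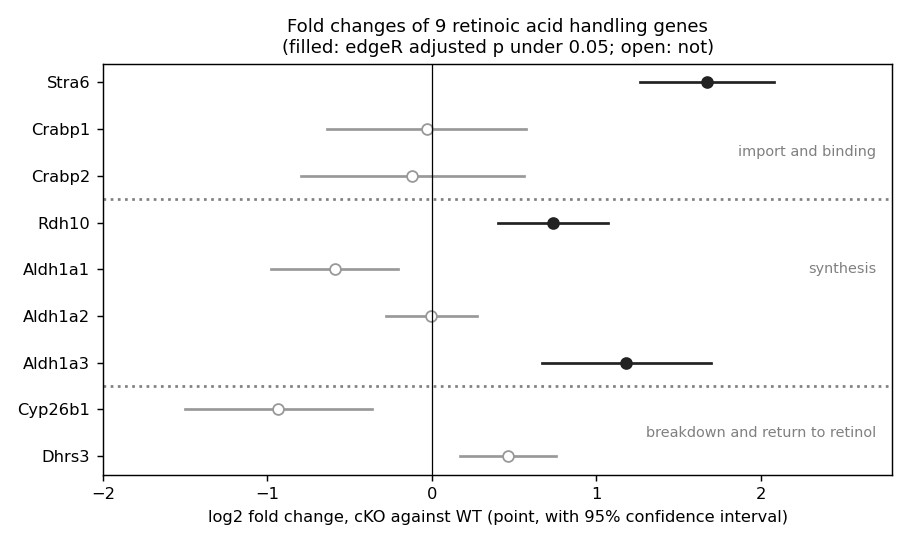
Log2 fold change of each gene, cKO against WT (x axis), with its 95% confidence interval, grouped by role; filled points are genes with an edgeR adjusted p under 0.05. Stra6 at 1.67, Aldh1a3 at 1.18 and Rdh10 at 0.73 are filled, and the intervals of Cyp26b1, Aldh1a1 and Dhrs3 leave out 0 although these genes missed the adjusted threshold.

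The ratio of the summed Aldh1a FPKM to the Cyp26b1 FPKM sets synthesis against clearance transcripts within a library. It was 24.9, 13.3 and 16.9 in cKO libraries 1, 2 and 3 and 14.0, 11.9 and 13.5 in WT libraries 1, 2 and 3. The groups overlapped, since cKO library 2 lay below WT libraries 1 and 3. The means were 18.4 ± 5.92 and 13.1 ± 1.07, and the difference of 5.24 fell to 1.99 without cKO library 1.

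By FPKM the order of levels differed between the groups. In WT testes Aldh1a1 led at 358 ± 73.7 FPKM, above 99.8% of tested genes, followed by Cyp26b1 (29.7 ± 8.34), Aldh1a2 (24.1 ± 1.19), Dhrs3 (18.0 ± 1.54), Crabp1 (11.7 ± 2.86), Rdh10 (7.97 ± 1.10), Stra6 (6.61 ± 0.709), Crabp2 (2.69 ± 0.527) and Aldh1a3 (1.95 ± 0.553). Among neighbours in that order, the libraries of Cyp26b1 and Aldh1a2 overlapped, as did those of Crabp2 and Aldh1a3. In cKO testes Aldh1a1 still led at 238 ± 40.6 FPKM. Dhrs3 (24.9 ± 2.50), Aldh1a2 (24.1 ± 2.51), Stra6 (21.1 ± 5.47), Cyp26b1 (15.6 ± 5.92), Rdh10 (13.3 ± 1.94) and Crabp1 (11.5 ± 3.40) followed, and each of these overlapped its neighbour. Stra6 moved from rank 7 to rank 4, and Cyp26b1 from rank 2 to rank 5. Aldh1a3 (4.43 ± 0.623) and Crabp2 (2.49 ± 0.195) came last and did not overlap each other.

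**Figure D3:**
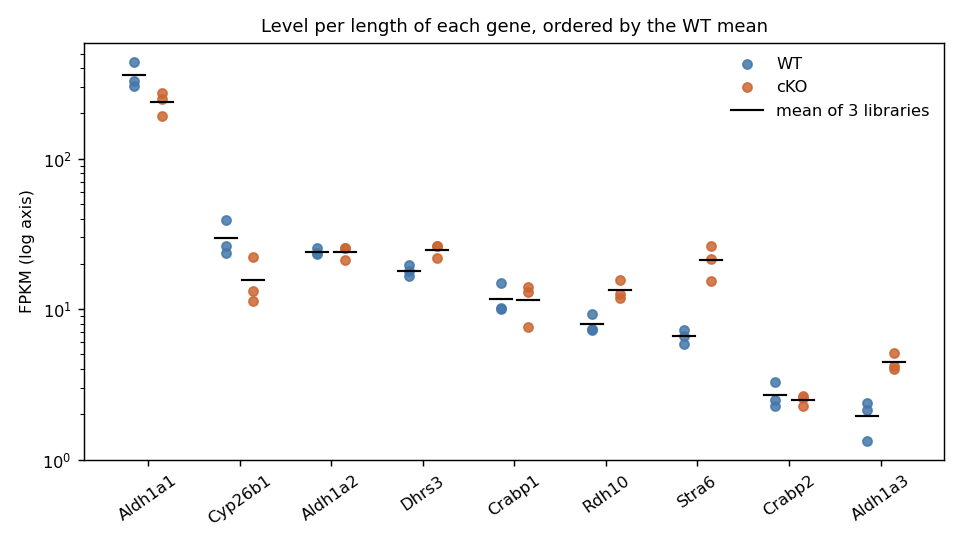
FPKM of each gene on a log axis, 1 point per library and a black bar at the mean of 3, with genes ordered by their WT mean from Aldh1a1 at 358 to Aldh1a3 at 1.95. Points of WT (blue) and cKO (orange) are apart for Aldh1a1, Cyp26b1, Dhrs3, Rdh10, Stra6 and Aldh1a3.

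Libraries also differed within their groups. In cKO, library 2 had the highest Cyp26b1, Aldh1a1 and Rdh10 and the lowest Stra6 and Dhrs3. In WT, library 2 likewise had the highest Cyp26b1, Aldh1a1 and Rdh10 and the lowest Stra6, but the highest Dhrs3. The summed level of the 12 Sertoli cell markers was highest in the same libraries, at 1157 CPM in cKO library 2 (993 and 765 CPM in cKO libraries 1 and 3) and 3249 CPM in WT library 2 (2387 and 2722 CPM in WT libraries 1 and 3). Amh and Clu made up most of that sum, and most markers did not follow it. Of the 12, only Amh, Clu, Dhh and Aard were highest in library 2 of both groups. Sox9, Hsd17b3 and Fshr were highest in cKO library 1 and lowest in WT library 2. Cst9, Cst8, Defb19 and Ptgds were also highest in cKO library 1.

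Markers of several cell types moved with the groups. In bulk testis RNA, fewer cells of a type and less RNA per cell cannot be told apart. Of 12 Sertoli cell markers 11 were called lower in cKO and 1, Cst8, was not called, with a median log2 fold change of -2.37. Their summed level ranged from 765 to 1157 CPM in cKO and 2387 to 3249 CPM in WT. The cKO mean of that sum, most of it from Amh and Clu, was 0.349 times the WT mean. Fitted levels of single markers ran from 0.101 (Hsd17b3) to 1.18 (Cst8) times WT, with Clu at 0.552. Cyp26b1 stood at 0.524 and Aldh1a1 at 0.664 times WT. The marker range is too wide to single out a gene. It also holds Crabp1 (0.979), Crabp2 (0.922) and Aldh1a2 (0.998 times WT), which showed no detectable difference. The 6 pregranulosa markers, those of ovarian supporting cells, summed to 265 to 306 CPM against 95.4 to 121 CPM, with Foxl2 and Wnt4 called higher. Of 8 fetal Leydig cell markers all had a positive fold change and 1, Fdx1, was called higher (5259 to 7069 against 3913 to 4612 CPM summed). Of 9 interstitial progenitor markers all had a positive fold change and none was called by edgeR, while 8 reached a raw p under 0.05 and DESeq2 called 3 (12566 to 20790 against 8634 to 13966 CPM summed). No matched marker of these lists was at 0 in every library, and the part of these cell types in the differences of Stra6, Rdh10, Aldh1a3, Aldh1a1, Cyp26b1 and Dhrs3 was not tested.

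Markers of tissue that could be carried over at dissection, and of further cell types of the testis itself, were also measured. Of 10 mesonephros and duct markers, Emx2 was higher and Cited1 lower (summed 101 to 122 CPM in cKO against 120 to 133 CPM in WT, overlapping). Cited1 alone stood at 7.65 ± 1.66 CPM in cKO against 40.7 ± 4.90 CPM in WT, while 7 of the 10 had a positive fold change and the median log2 fold change was 0.30. The 7 tested markers of the coelomic surface gave 0 calls by edgeR and 1 at an unadjusted p under 0.05, but all 7 had a positive fold change. They summed to 438 to 521 CPM in cKO against 395 to 412 CPM in WT, with no overlap. Kdr was the 1 of 7 endothelial markers called higher (summed 521 to 633 CPM in cKO against 483 to 560 CPM in WT, overlapping). Des rose and Ptch1 fell among 6 peritubular myoid markers. The myoid markers summed to 752 to 854 CPM in cKO against 934 to 1107 CPM in WT with no overlap, although 4 of the 6 had a positive fold change. The 9 tested germ cell markers gave 0 calls by edgeR (1 lower at an unadjusted p under 0.05), with a summed level of 664 to 1311 CPM in cKO against 1030 to 1398 CPM in WT. Macrophage markers (7 tested) and adrenal cortex markers (3 tested) also gave 0 calls by edgeR, with 1 and 0 at an unadjusted p under 0.05. DESeq2 called 1 coelomic marker higher and none of the germ cell, macrophage or adrenal markers.

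Beyond the 9 genes, 59 other retinoid genes were listed, of which 55 were matched and 47 tested. By edgeR, 1 of the 47 was called higher and 1, Fabp5, lower, which is 2 calls against 3.35% of all tested genes, and the median log2 fold change was 0.08. With raw p under 0.05 as the limit, 14 stood higher and 4 lower, against 7.75% and 8.03% of all tested genes.

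Among 9 tested import, storage and transport genes, 1 was called higher and 1, Fabp5, lower. Fabp5, which encodes a fatty acid binding protein that can also carry retinoic acid, stood at 15.2 ± 1.29 CPM in cKO against 25.5 ± 3.38 CPM in WT with no overlap (log2 fold change -0.75 with SE 0.165, edgeR adjusted p = 0.0308). The Fabp5 call was lost without cKO library 3 or any 1 of the WT libraries (edgeR adjusted p = 0.148, 0.180, 0.0630 and 0.114, in the order cKO 3, WT 1, WT 2 and WT 3). Scarb1, a lipoprotein receptor and the most abundant of the list, was not called (854 ± 145 and 703 ± 98.2 CPM, edgeR adjusted p = 0.443).

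Of 10 other tested enzymes of retinol and retinaldehyde, none was called by edgeR, 3 stood higher by raw p under 0.05, and DESeq2 called 2. Adh1, a retinol-oxidising alcohol dehydrogenase, stood at 198 ± 73.6 CPM in cKO against 108 ± 32.6 CPM in WT with overlapping groups (log2 fold change 0.88 with SE 0.262, edgeR adjusted p = 0.109). It was called higher without cKO library 2 (log2 fold change 1.10, edgeR adjusted p = 0.0178) and by DESeq2 (DESeq2 adjusted p = 0.0120), while without cKO library 3 its log2 fold change was 0.56 (edgeR adjusted p = 0.356). Dhrs7 stood at 37.6 ± 6.60 and 22.7 ± 5.80 CPM (log2 fold change 0.73, edgeR adjusted p = 0.0825), and was called higher without WT library 2 (log2 fold change 0.96, edgeR adjusted p = 0.0404) and by DESeq2 (DESeq2 adjusted p = 0.0179), with 0.58 without cKO library 2 (edgeR adjusted p = 0.143). The class III alcohol dehydrogenase gene Adh5 was at 155 ± 21.7 and 156 ± 17.8 CPM.

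Transcripts of the other clearing enzymes were rare. Cyp26a1 had 1.78, 1.13 and 1.21 CPM in cKO against 0.436, 0.20 and 0.478 CPM in WT, the opposite direction to Cyp26b1 (log2 fold change 1.85 with SE 0.560, edgeR adjusted p = 0.115). Its WT mean was 0.207 FPKM, against 29.7 FPKM for Cyp26b1, and Cyp26c1 was too low to be tested. The groups of Cyp26a1 did not overlap, but these levels rest on few counts.

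Retinoid receptors and cofactors gave 0 calls by edgeR among 13 tested, with 2 above and 2 below by raw p under 0.05. Rarb, a receptor gene itself induced by retinoic acid, stood at 8.43, 6.65 and 9.55 CPM in cKO against 5.60, 3.59 and 3.71 CPM in WT (log2 fold change 0.93 with SE 0.276, edgeR adjusted p = 0.109), with every cKO library above WT. Rarg stood at 43.0 ± 3.46 and 31.4 ± 1.49 CPM (log2 fold change 0.45, edgeR adjusted p = 0.0958), and DESeq2 called both higher (DESeq2 adjusted p = 0.0323 for Rarb and 0.0395 for Rarg). The 2 that stood below were the receptor gene Rara and the cofactor gene Ncoa2, each with every cKO library below WT. Rara stood at 92.7 ± 3.57 CPM in cKO against 112 ± 11.0 CPM in WT (log2 fold change -0.27, edgeR adjusted p = 0.284). Ncoa2 had a log2 fold change of -0.44 (edgeR adjusted p = 0.165). The abundant partner receptor Rxra was at 155 ± 6.59 and 163 ± 7.65 CPM and was not called (edgeR adjusted p = 0.814).

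Among 18 tested genes known to respond to retinoic acid, 1 was called higher and none lower by edgeR. This list shares members with the lists above, Rarb and Cyp26a1 among them. By raw p under 0.05, 10 stood higher and 1 lower, against 7.75% and 8.03% of all tested genes, and DESeq2 called 3 higher and 1 lower, against 2.87% and 3.12%. Positive fold changes were seen for 15 of the 18, and the list median was 0.53 against 0.003 over all tested genes. The 1 that stood lower by raw p was Rarres1, at 1.66 ± 0.573 CPM in cKO against 4.87 ± 2.21 CPM in WT. Its groups did not overlap (log2 fold change -1.55 with SE 0.436, edgeR adjusted p = 0.0919). Stra8, a gene of meiotic entry that retinoic acid induces, stood at 4.94, 20.1 and 13.6 CPM in cKO libraries 1, 2 and 3 and at 5.29, 0.931 and 1.26 CPM in WT libraries 1, 2 and 3. The groups overlapped, as WT library 1 lay above cKO library 1, and Stra8 was not called (log2 fold change 2.37 with SE 0.623, edgeR adjusted p = 0.0721). It was called higher without cKO library 1 (log2 fold change 2.75, edgeR adjusted p = 0.0131) or without WT library 1 (log2 fold change 3.55, edgeR adjusted p = 0.0167). Without cKO library 2, WT library 2 or WT library 3 the Stra8 log2 fold change was 1.90, 1.99 and 2.04 and not called (edgeR adjusted p = 0.121, 0.188 and 0.309). Within each group the germ cell marker sum was highest in the same library as Stra8, at 1311 CPM in cKO library 2 and 1398 CPM in WT library 1. Between groups it stood the other way, with a cKO mean 0.814 times the WT mean. The sum was 664 and 950 CPM in cKO libraries 1 and 3, below every WT library (1030 to 1398 CPM). The part of germ cells in the Stra8 difference was not tested. Hic1, a transcription factor gene, stood at 231 ± 27.7 and 168 ± 28.6 CPM (edgeR adjusted p = 0.134), and Tgm2, the tissue transglutaminase gene, at 154 ± 17.3 and 149 ± 6.60 CPM.

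**Figure D4:**
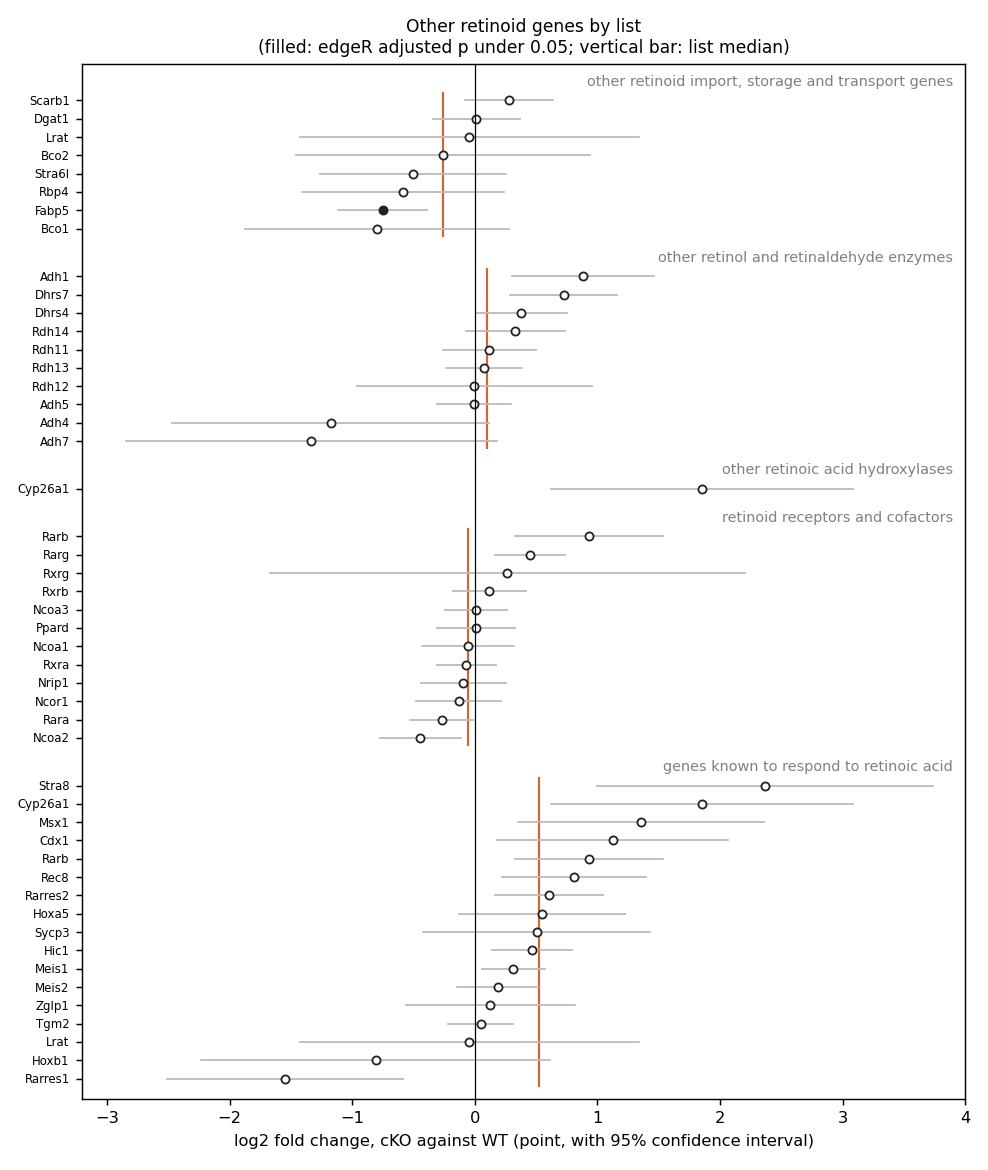
Log2 fold change, cKO against WT (x axis), with 95% confidence intervals for genes of 5 retinoid lists, sorted within each list; the orange bar is the median of all tested genes of the list and filled points passed an edgeR adjusted p under 0.05. Fabp5 at -0.75 is the filled point, and the genes known to respond to retinoic acid lie mostly right of 0.

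For the gene with the smallest p in each role, the protein-coding genes with the most similar pattern were sought by Pearson correlation of log2 CPM over the 6 libraries, among 10723 candidates with a mean of at least 10 CPM. Stra6 was most like Tspan12 (r = 0.998), Aifm2 (r = 0.996) and Vps9d1 (r = 0.995), Aldh1a3 most like Zfp512b (r = 0.993), Slc37a3 (r = 0.991) and Map1lc3a (r = 0.991), and Cyp26b1 most like Pdia5 (r = 0.990), Mapk13 (r = 0.987) and Itgb5 (r = 0.986). With only 6 libraries in a pair of groups, 254, 304 and 159 candidates had r above 0.9 with Stra6, Aldh1a3 and Cyp26b1, so these names are a description. Likeness of pattern is not likeness of size: Vps9d1 had a log2 fold change of 0.09 where Stra6 had 1.67.

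**Figure D5:**
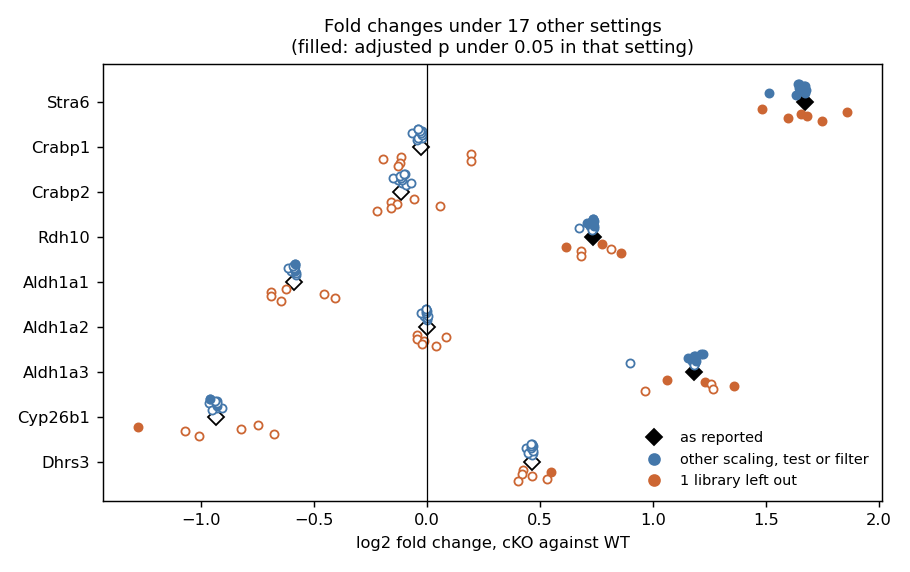
Log2 fold change of each gene, cKO against WT (x axis), as reported (diamond), under 11 other scalings, tests, filters or designs (blue) and with 1 library left out (orange); filled marks have an adjusted p under 0.05 in that setting. Stra6 is filled in all 17 alternatives, Rdh10 and Aldh1a3 in 12 each, Cyp26b1 in 4, Aldh1a1 in 3 and Dhrs3 in 2.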

How the data were processed

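Per the labels' protocols, polyadenylated RNA of testes was isolated with oligo-dT beads, fragmented and read in pairs on a NovaSeq. The aligner HISAT2 2.0.5 and the build GRCm38 come from the submitters' processing notes, but gene identifiers and coordinates in the files are of the C57BL/6NJ annotation and were mixed with no other build. No source used here names the counter, its strand setting or the annotation release. The deposited counts are whole numbers per gene, not normalised. The authors' FPKM values equalled the count over gene length and a library denominator of 0.968 to 1.05 times the count total.

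Genes passing filterByExpr (18383 of 42747) were fitted in R 4.3.3 with edgeR 4.0.16 (TMM scaling, quasi-likelihood test, no covariate). Standard errors are the log2 fold change over the square root of F. The 9 genes and all gene lists were chosen with earlier results of these data known, and p-values were adjusted over all tested genes only. Named were the 9 genes, and of each other retinoid list the called genes, the 2 with the smallest p and the 2 with the highest FPKM. Rara, Ncoa2 and Rarres1 were named besides, after their values were seen. Cell type lists were summed, and their called genes and Cst8 were named after their values were seen. Single-gene results of 2 listed genes are not reported here, and the plot of other retinoid genes leaves them out. Promoter windows came from RefSeq (GRCm38.p6). Alternatives used DESeq2 1.42.0, limma 3.58.1 (voom, and log2 of FPKM plus 0.1 or 1), other scalings, filters, a replicate block and each library left out. On data simulated for cKO against WT (18383 genes, 200 changed), 46% of genes changed by 1 and 79% changed by 2 on the log2 scale were recovered, with 6 false among 131 calls. Within a group, library pairs differed by 13.6 to 40.9 times the variance that sampling gives (chi-square over its degrees of freedom), and each library is 1 replicate.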

Additional observations from a re-analysis of the deposited data

How the results depend on the processing

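Stra6 was called higher in all 17 alternatives (log2 fold change 1.48 to 1.86). The 3 genes called higher became 1 with limma-trend on log2(FPKM + 0.1) and 1 on log2(FPKM + 1), and 1 to 4 with a library left out. None was called lower as reported, against 2 (Cyp26b1 and Aldh1a1) by DESeq2, 2 with no filter on low counts, 2 with the replicate number as a block and 0 to 1 with a library left out. Correlations of deviations between same-numbered libraries were 0.02, 0.18 and 0.03, and those between differently numbered libraries ran from -0.17 to 0.16. Libraries 2 and 3 of cKO correlated best with the WT library of the same number. In contrast, cKO library 1 correlated best with WT library 3 (0.16). These values do not settle whether replicate numbers pair the libraries. With the block, 324 genes were called higher and 372 lower, against 276 and 339 without it. Counts over all genes were 527 higher and 574 lower by DESeq2, 149 and 223 with limma-trend on log2(FPKM + 0.1), 156 higher on log2(FPKM + 1), 613 and 651 with no filter, and 105 to 342 higher and 167 to 399 lower with a library left out. The cause of these shifts was not tested.

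The Aldh1a3 share difference between groups was 1.16 percentage points by FPKM and 2.50 by CPM, which does not divide by length. The Crabp1 share difference (0.34 points) ran from -1.19 to 2.57 with a library left out. Near 0, signs turned: Aldh1a2 stood at 0.00023, 0.00029 and 0.0032 with DESeq2 size factors, the DESeq2 test and no filter, and at -0.046 to 0.084 with a library left out. With a library left out, Crabp1 ran from -0.19 to 0.19, Crabp2 from -0.22 to 0.058, Tgm2 from -0.0085 to 0.14 and Adh5 from -0.12 to 0.10, none called. Other scalings moved the median of all genes by at most 0.03. Counting error was 21.5% in cKO and 40.8% in WT for Cyp26a1, and 13.8% and 13.2% for Crabp2.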
